A study of Mus musculus with 30 samples.

Results

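Thermogenic adipocyte genes are the genes by which brown and beige fat is usually recognised. The 8 examined here, Prdm16, Ebf2, Ucp1, Cidea, Cox8b, Cox7a1, Elovl3 and Dio2, were chosen by name as a standard set of such genes, and all 8 were among the 36558 genes of the table. They were followed in bulk RNA-seq libraries from 2 tissues, heart and white adipose, of male C57BL/6J mice that had received the adeno-associated virus AAV8 carrying either GFP, the green fluorescent protein control, or F11, which encodes coagulation factor XI. AAV8 is known mainly for transducing liver, which was not analysed here. All mice, the GFP controls included, ate a high-fat diet with the nitric oxide synthase inhibitor l-NAME for 7 weeks, and tissue was taken at 15 weeks of age. The white adipose groups held 8 GFP and 8 F11 libraries. The heart groups held 6 GFP libraries, with a further labelled one not analysed here, and 7 F11 libraries. The labels do not give the fat depot, the vector's promoter or dose, which heart and which fat came from 1 mouse, or whether each library was a separate mouse, so p-values measure only the spread between these libraries, which may be technical.

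Brown and beige adipocytes burn fuel to make heat. Cold acts through noradrenaline and beta-adrenergic receptors, cyclic AMP rises, and lipolysis feeds mitochondria in which UCP1 lets protons return across the inner membrane without ATP synthesis. White adipocytes store lipid and carry little of this equipment, although some depots form beige cells after cold or adrenergic drive. PRDM16 and EBF2 are transcriptional regulators that set up the brown program. The other members carry it out: CIDEA coats lipid droplets, COX8B and COX7A1 are subunits of cytochrome c oxidase, ELOVL3 elongates very long chain fatty acids, and DIO2 turns thyroxine into active thyroid hormone inside the cell. COX8B and COX7A1 are also the usual heart and skeletal muscle forms of their subunits, so their transcripts mark striated muscle as well as brown fat.

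The 3 sequences below are the 250 bases before the RefSeq start (GRCm38.p6) of the members on which the main contrasts of level turned: Ucp1, at the counting limit in white fat, and the pair of oxidase subunits that heart expressed most highly. They lie at chr8:83290098-83290347 on the plus strand for Ucp1, chr7:30183921-30184170 on the plus strand for Cox7a1, and chr7:140900447-140900696 on the minus strand for Cox8b. Each is written 5′ to 3′ and ends at the base before the start, and capitals mark a match to AGGTCA, the core element bound by many nuclear receptors.
Ucp1: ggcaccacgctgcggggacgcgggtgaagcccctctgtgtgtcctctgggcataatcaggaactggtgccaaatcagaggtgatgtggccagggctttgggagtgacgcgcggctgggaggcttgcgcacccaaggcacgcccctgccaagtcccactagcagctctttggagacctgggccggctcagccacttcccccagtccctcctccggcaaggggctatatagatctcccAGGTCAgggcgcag
Cox7a1: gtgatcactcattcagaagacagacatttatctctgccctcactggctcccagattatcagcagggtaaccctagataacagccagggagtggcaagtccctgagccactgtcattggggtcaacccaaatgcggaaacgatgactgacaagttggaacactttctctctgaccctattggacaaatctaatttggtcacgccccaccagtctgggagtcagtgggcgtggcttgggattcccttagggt
Cox8b: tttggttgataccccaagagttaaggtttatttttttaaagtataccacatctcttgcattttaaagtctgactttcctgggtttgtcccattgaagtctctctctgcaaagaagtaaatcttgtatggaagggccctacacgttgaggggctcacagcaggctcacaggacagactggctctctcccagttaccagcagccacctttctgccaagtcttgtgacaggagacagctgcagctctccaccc
Both strands were searched for AGGTCA, for the estrogen-related receptor site TCAAGGTCA, which contains it, for the TATA box TATAAA, and for the cyclic AMP response element TGACGTCA. Of 32851 RefSeq promoters of this length, 14.0% held AGGTCA, 0.387% held TCAAGGTCA, 12.4% held TATAAA and 1.55% held TGACGTCA. The Ucp1 window held 1 AGGTCA, which began 14 bases before the start, and neither Cox7a1 nor Cox8b held any of the 4 motifs. The table had a promoter for 5 of the 8 members. Of the other two matched genes, Dio2 held TATAAA beginning 30 bases and TGACGTCA beginning 95 bases before its start, and Prdm16 held none of the 4 in its window. These are matches of letters, not measured binding sites.

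Adipose libraries held 15949550 to 26329117 estimated counts and heart libraries 25751607 to 33022539. Levels below are in CPM, counts per 1e6 counts of the library total after TMM scaling over both tissues, and CPM per kilobase of annotated exon wherever genes are compared with each other. TMM factors were 0.648 to 0.735 in heart and 1.26 to 1.43 in adipose tissue, and a count of 0 in 1 library allowed a level of up to 0.0845 to 0.149 CPM in adipose tissue and 0.133 to 0.170 CPM in heart, for counting error only. The vector gene F11 ran from 0.382 to 11.9 CPM in F11 and from 0 to 3.46 CPM in GFP adipose libraries, which overlapped, and was listed at 0 in 5 of 7 F11 and 4 of 6 GFP hearts, so it gave no check of the heart labels. All 15 white adipocyte markers were higher in adipose tissue than in heart, and all 10 cardiomyocyte markers were lower, as the tissue labels say. Some libraries also held markers of other tissues. The 10 cardiomyocyte markers summed to 6748 CPM in GFP adipose library L140, against 24.6 to 51.2 CPM in F11 adipose libraries and 130.4 CPM in GFP library L138, the next highest, and the members' values that rest on L140 are given with and without it. The 8 hepatocyte markers, which include the albumin gene Alb, summed to 3941 and 1144 CPM in GFP adipose libraries L136 and L137 and to 3686 and 2066 CPM in F11 libraries L145 and L146, against 9.76 to 425 CPM in the other 12. In hearts the list summed to 253 CPM in GFP heart L2 and to at most 17.1 CPM in the others. The vector gene F11, which liver expresses, was highest of the GFP libraries in L136 and highest of the F11 libraries in L146. F11 libraries L141, L142 and L143, with hepatocyte sums of 9.76, 58.4 and 56.2 CPM, held 3.72, 4.67 and 5.70 CPM of it. GFP libraries L133, L134 and L140, with sums of 42.3, 58.3 and 39.4 CPM, held 0.135, 0.0788 and 0 CPM. F11 library L147, with a sum of 425 CPM, held 0.382 CPM. No relation of the 8 members with the hepatocyte sum passed over the 16 adipose libraries (lowest adjusted permutation p for Pearson r = 0.203, for Elovl3, with r = 0.54, rho = 0.56 and r = 0.35 without L136 and L145), and the part of these markers in the F11 values was not tested.

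The members named for thermogenic fat were low in these fat libraries beside the adiponectin gene. By CPM alone, without regard to exon length, Ebf2 and Prdm16 had the highest medians of the members, at 21.5 and 7.93 CPM. Per kilobase of exon, the order of median levels in adipose tissue was Cox8b (4.67 CPM per kilobase), Ebf2 (3.11), Cox7a1 (2.46), Cidea (0.972), Prdm16 (0.851), Elovl3 (0.660), Dio2 (0.150) and Ucp1 (0.0526). For scale, the mean level of Adipoq, the adiponectin gene, was 1097 CPM per kilobase in GFP and 1173 in F11 adipose libraries. Every neighbouring pair in this order had overlapping ranges over the 16 libraries. Cox8b was above Ebf2 in 14 of 16, Ebf2 above Cox7a1 in 10, Cidea above Prdm16 in 10 and Dio2 above Ucp1 in 14. In heart the order spanned a wider range. Cox8b (663) and Cox7a1 (618) stood far above Cidea (25.0), Prdm16 (3.08), Ebf2 (1.68), Dio2 (0.477) and Ucp1 (0.0276), and Elovl3 had a median of 0. From Cox7a1 down to Dio2 no neighbouring ranges overlapped in heart, while those of Cox8b and Cox7a1 did, and those of Dio2, Ucp1 and Elovl3 did.

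**Figure D1:**
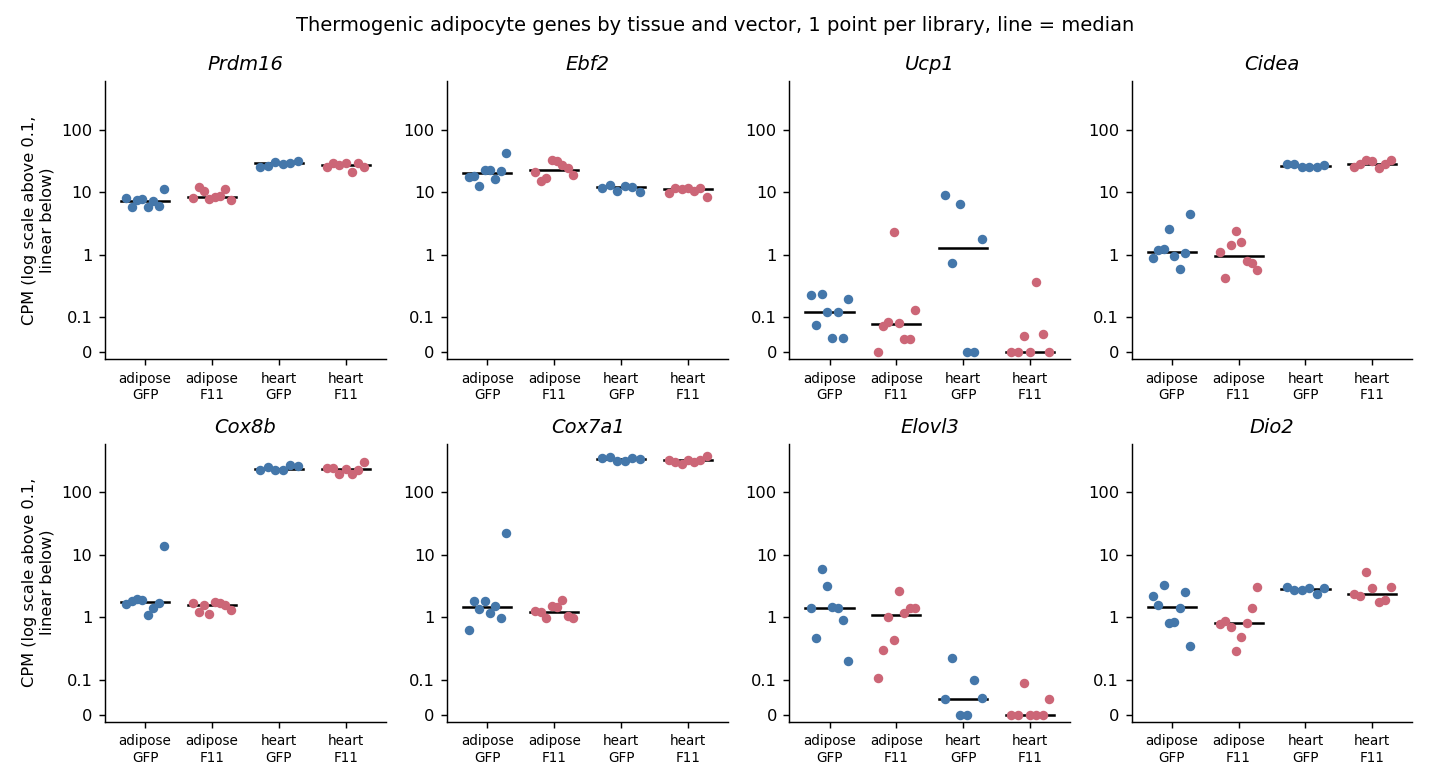
Each panel plots the CPM of 1 gene (y axis, logarithmic above 0.1 and linear below) in every library of the 4 groups, GFP in blue and F11 in red, with the group median as a line. Cox8b, Cox7a1, Cidea and Prdm16 had medians of 239, 331, 27.9 and 28.7 CPM over the 13 hearts. Over the 16 adipose libraries their medians were 1.68, 1.32, 1.08 and 7.93 CPM. One GFP adipose library, L140, reached 13.8 and 22.6 CPM of Cox8b and Cox7a1.

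The comparison of adipose tissue with heart asks where the members are expressed. Fitted over both vectors, 5 of the 7 members tested were lower in adipose tissue (Cox7a1, Cox8b, Cidea, Prdm16 and Dio2) and 2 were higher (Elovl3 and Ebf2). Over all genes 86.6% of 16526 tested were called in this contrast, 7818 higher and 6496 lower, so the members are described by the size of their differences. The log2 difference, adipose minus heart, was −7.20 (SE 0.43) for Cox7a1, −6.80 (SE 0.30) for Cox8b, −4.36 (SE 0.24) for Cidea and −1.75 (SE 0.09) for Prdm16, with adjusted p-values of at most 3.73e-15 by edgeR. Without L140 it was −8.01 for Cox7a1, −7.29 for Cox8b, −4.60 for Cidea and −1.84 for Prdm16. It was 5.0 (SE 0.63) for Elovl3 and 1.01 (SE 0.14) for Ebf2, with adjusted p = 2.48e-08 and 1.10e-07 by edgeR. Elovl3 passed the filter on low counts through the adipose libraries only. The 13 hearts held 12 counts of it, with 7 hearts at 0. Its direction and call thus followed from the filter, and its log2 difference rests on heart counts near 0. Dio2 differed by −1.11 (SE 0.29, adjusted p = 0.00082). TMM moved the median log2 difference of all genes from 1.08 with plain library totals to 0.12, a shift of 0.96. With plain totals 12626 genes were called higher and 2682 lower. The 6 other members tested kept direction and call, while Dio2 came to −0.14 (adjusted p = 0.638). Ucp1 did not pass the filter on low counts and was not tested in this fit.

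Between vectors, no member passed the threshold in either tissue. In adipose tissue 0 of 7 members tested were called, and over all genes 0% of 15229 were, with 638 at an unadjusted p under 0.05 by edgeR, 6 calls by DESeq2, 0 by limma voom and 4 in the fit over all 4 groups. The 7 members had a median log2 fold change, F11 over GFP, of −0.65, with 5 negative, beside a median of 0.00 over all genes. Without L140 the median of the members was −0.08. In heart 0 of 6 members tested were called, against 0.872% of 14684 genes (128 genes, and 51 without GFP hearts L1 and L5), and their median log2 fold change was −0.06 beside −0.01 over all genes. The difference of the vector effect between tissues was called for 0 of 7 members and 0.0242% of 16526 genes. It was largest for Cox7a1, at −1.50 on the log2 scale (SE 0.73, adjusted p = 0.672), and 0.06 without L140. The standard errors of the members' log2 fold changes were 0.15 to 0.68 in adipose tissue and 0.06 to 0.21 in heart, so smaller changes were detectable in heart.

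**Figure D2:**
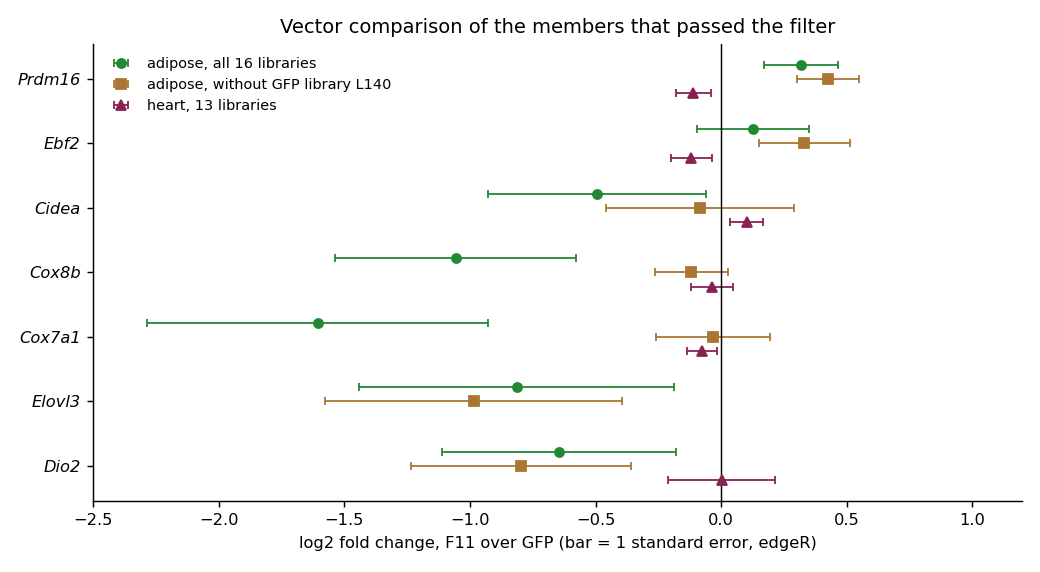
Points show the log2 fold change, F11 over GFP (x axis), of each member that passed the filter (y axis), with bars of 1 standard error from edgeR, for all 16 adipose libraries, for adipose tissue without GFP library L140, and for heart. Cox7a1 and Cox8b moved from −1.61 and −1.06 to −0.03 and −0.12 without L140, and Prdm16 stayed positive in adipose tissue.

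Prdm16 (ENSMUSG00000039410, chr4:154316125-154636873, minus strand, GRCm38 as all positions here) encodes a zinc finger regulator that brown adipocytes need to keep their identity, and it also acts in the developing heart. In adipose tissue it ranged from 5.86 through a median of 7.37 to 11.1 CPM with GFP and from 7.38 through 8.45 to 12.0 CPM with F11. All 8 F11 libraries were above the GFP median, and the groups overlapped, with L140 the highest GFP library. The log2 fold change was 0.32 (SE 0.15, unadjusted p = 0.0449, adjusted p = 0.9996 by edgeR). Without L140, the other 7 GFP libraries reached at most 8.14 CPM and the estimate was 0.42 (SE 0.12, unadjusted p = 0.00359, adjusted p = 0.811). In limma voom, which weights libraries by quality, it was 0.44 (unadjusted p = 0.000933, adjusted p = 0.305). No setting brought Prdm16 past the threshold in adipose tissue, and its log2 fold change ran from 0.24 to 0.46 over all of them. In heart it was higher, at 25.5 to 31.8 CPM (median 29.2) with GFP and 21.3 to 29.5 CPM (median 27.6) with F11, with 6 of 7 F11 hearts below the GFP median. The estimate there was −0.11 on the log2 scale (SE 0.07, adjusted p = 0.561). The difference between the tissues' vector effects was 0.42 (SE 0.17, unadjusted p = 0.0234, adjusted p = 0.554), which did not pass. Mecom, the paralog of Prdm16, differed by 0.27 in adipose tissue on the log2 scale (SE 0.09, unadjusted p = 0.0107, adjusted p = 0.9996).

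Ebf2 (ENSMUSG00000022053, chr14:67233292-67430918, plus strand) encodes a helix-loop-helix factor of brown and beige precursor cells that works with PPARG. Per kilobase it was above Prdm16 in fat, and it stood at 12.7 to 41.7 CPM with GFP (median 19.96) and 15.4 to 32.9 CPM with F11 (median 23.0). L140 was again the highest GFP library, and the groups overlapped over nearly their whole range. The log2 fold change was 0.13 (SE 0.22, adjusted p = 0.9996), and 0.33 (SE 0.18, adjusted p = 0.811) without L140. Hearts held 10.1 to 12.8 CPM with GFP and 8.48 to 11.8 CPM with F11. All 7 F11 hearts lay below the GFP median of 11.9 CPM, and the difference of −0.12 on the log2 scale (SE 0.08, adjusted p = 0.602) failed the adjustment over all genes.

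Ucp1 (ENSMUSG00000031710, chr8:83290352-83298452, plus strand) encodes the uncoupling protein that defines thermogenic fat, and white adipose libraries held it at the counting limit. The 8 GFP libraries held 26 counts in all, with at most 7 in 1 library, and 5 of them had 3 counts or fewer. The 8 F11 libraries held 75 counts, of which L144 alone had 63, and the other 7 had 3 or fewer. On the CPM scale GFP libraries ran from 0.0403 through 0.121 to 0.234, and F11 libraries from 0 through 0.0805 to 2.33. The medians are near the level of 3 counts, and L144 set the F11 mean of 0.348 ± 0.802 CPM (SD, n = 8) against 0.133 ± 0.0787 CPM (SD, n = 8). The exact permutation p (two-sided, 12870 splits) for the means was 0.962, and without L144 the difference turned to −0.07 CPM with an exact permutation p = 0.0702. In the other members L144 was mixed. It held 0.444 CPM of Elovl3, 0.296 CPM of Dio2, the lowest F11 value of that gene, and 32.9 CPM of Ebf2 and 2.41 CPM of Cidea, the highest F11 values of theirs.

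In heart nearly all Ucp1 counts came from 4 of the GFP libraries. These hearts held 9.02 (L1), 6.45 (L5), 1.79 (L9) and 0.733 CPM (L2), with L6 and L8 at 0. Among the F11 hearts L38 held 0.370 CPM from 8 counts, L39 and L35 held 1 count each, and the other 4 were at 0. The 4 GFP hearts with Ucp1 were all above every F11 heart, and the 2 at 0 overlapped with them. The 6 GFP hearts averaged 2.999 ± 3.81 CPM (SD) from 368 counts, and the 7 F11 hearts 0.0667 ± 0.136 CPM (SD) from 10 counts. The exact permutation p (two-sided, 1716 splits) was 0.021, 0.0629 after Benjamini-Hochberg adjustment over the 3 tests of this kind. Leaving out any 1 GFP heart gave an exact permutation p of 0.0101 to 0.0455, and leaving out any 1 F11 heart gave 0.0606. Without both L1 and L5 it was 0.109, and the mean difference, F11 minus GFP, came from −2.93 to −0.56 CPM. Fitted by edgeR without a filter on low counts, heart Ucp1 had an unadjusted p of 0.00302 and an adjusted p of 0.183 over 25603 genes.

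The hearts that held Ucp1 also held traces of adipocyte transcripts. Adipoq was 3.50 CPM in L1, 2.998 in L5, 1.79 in L2 and 1.55 in L9, and 1.30 CPM in L38, against 0.0504 to 1.03 CPM in the other 8 hearts. Over the 13 hearts log2(CPM + 1) of Ucp1 and Adipoq had Pearson r = 0.89 (permutation p, adjusted over the 8 members, 8e-05) and Spearman rho = 0.88 (adjusted p = 0.00168). Pearson r was 0.87 within the GFP and 0.91 within the F11 hearts. The value within F11 rested on L38, with 8 counts of Ucp1, as no other F11 heart held more than 1. Over all hearts r was 0.77 (permutation p = 0.00225) without L1 and L5, the 2 libraries farthest from the Adipoq median. For the 7 other members no relation with Adipoq passed in heart, with adjusted permutation p-values of at least 0.906 for Pearson r. Relative to Adipoq the hearts with Ucp1 held more of it than any white adipose library. L1 held 258 and L5 215 CPM of Ucp1 per 100 CPM of Adipoq, against at most 0.106 in any white adipose library. Plin1, the lipid droplet coat perilipin 1, was 6.93 and 5.26 CPM in L1 and L5 and at most 3.35 CPM in the other hearts, and Otop1, a proton channel known from brown fat, was 0.763 CPM in L1 and 0.283 in L5 and at 0 in 6 of 7 F11 hearts, while white adipose libraries held 0.814 to 20.5 CPM of it. Of 12 white adipocyte markers tested in heart, 8 had a negative log2 fold change and 1, the triglyceride synthesis gene Dgat2, was called, higher with F11 (log2 0.27, SE 0.06, adjusted p = 0.026), with 0 called without L1 and L5. The summed level of the list, most of it from the lipoprotein lipase gene Lpl (4275 to 5630 CPM in GFP hearts), was 5984 to 7510 CPM in GFP and 5868 to 7825 CPM in F11 hearts. The 8 mesothelial markers all had a negative log2 fold change (median −1.16, none called) and summed to 16.9 to 32.9 CPM in GFP and 7.30 to 19.9 CPM in F11 hearts. Whether adipose or mesothelial tissue on these hearts plays a part in the Ucp1 difference was not tested.

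**Figure D3:**
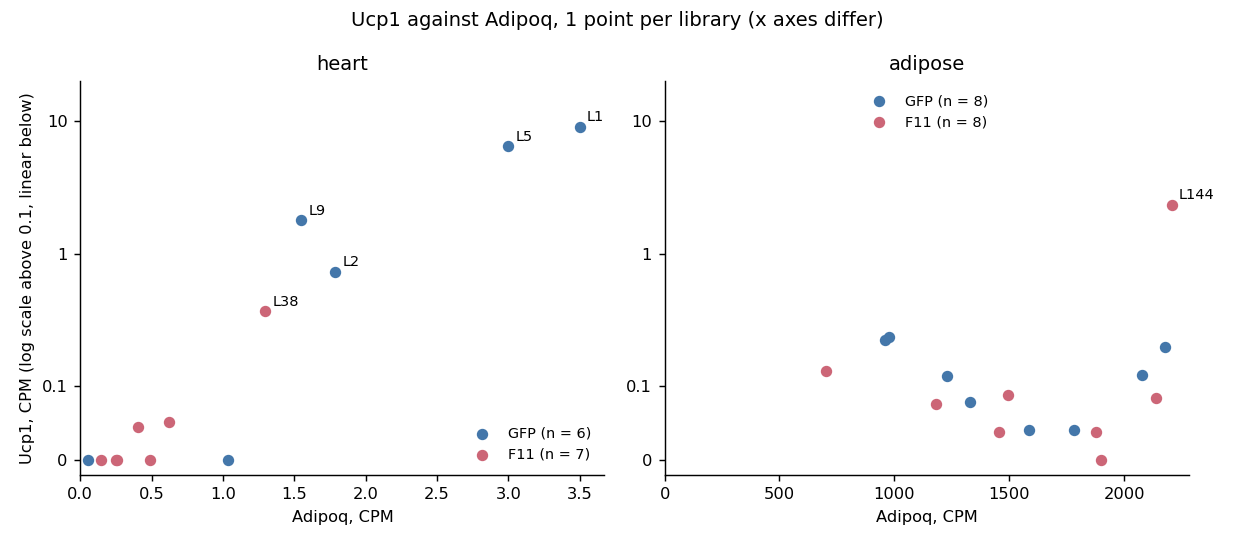
Ucp1 (y axis, CPM, logarithmic above 0.1 and linear below) is plotted against Adipoq (x axis, CPM, on different scales for heart and adipose tissue) with 1 point per library, GFP in blue and F11 in red. Hearts L1 and L5 held 9.02 and 6.45 CPM of Ucp1 with 3.50 and 2.998 CPM of Adipoq, while 15 of 16 adipose libraries held under 0.3 CPM of Ucp1 beside 703 CPM of Adipoq or more.

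Cidea (ENSMUSG00000024526) encodes a droplet protein that brown fat uses and that heart also expresses. In adipose tissue it ranged from 0.601 through 1.12 to 4.43 CPM with GFP and from 0.421 through 0.964 to 2.41 CPM with F11, with 4 F11 libraries above and 4 below the GFP median. The top GFP value was that of L140. The log2 fold change of −0.49 (SE 0.43, adjusted p = 0.9996) came to −0.08 (SE 0.37, adjusted p = 0.972) without it. Hearts held 25.5 to 28.2 CPM of Cidea with GFP and 24.3 to 32.4 CPM with F11, with 5 of 7 F11 hearts above the GFP median (log2 0.10, SE 0.07, adjusted p = 0.58). Its paralog Cidec, the droplet protein of white fat, averaged 978 CPM per kilobase in GFP adipose libraries and 0.832 in GFP hearts, whereas Cidea averaged 1.45 and 24.1, so the paralogs stood in opposite order in these tissues.

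Cox8b (ENSMUSG00000025488, chr7:140898945-140900446, minus strand) and Cox7a1 (ENSMUSG00000074218, chr7:30184144-30186078, plus strand) were the members that heart expressed most, and in fat 1 library decided their contrast. Cox8b was 1.11 to 1.97 CPM in 7 GFP adipose libraries, 13.8 CPM in L140, and 1.15 to 1.78 CPM in the 8 F11 libraries. Cox7a1 was 0.63 to 1.83 CPM in 7 GFP libraries, 22.6 CPM in L140, and 0.965 to 1.89 CPM with F11. Apart from L140 the groups overlapped over most of their range. With L140 the log2 fold changes were −1.06 (SE 0.48, unadjusted p = 0.0423) for Cox8b and −1.61 (SE 0.68, unadjusted p = 0.0311) for Cox7a1, both with adjusted p = 0.9996. Without it they were −0.12 (SE 0.15, adjusted p = 0.880) and −0.03 (SE 0.23, adjusted p = 0.986). DESeq2, which replaces outlying counts, gave −0.11 and −0.02 with L140 in the fit. Hearts ran from 225 to 271 CPM of Cox8b with GFP and from 199.9 to 304 with F11 (log2 −0.04, SE 0.08, adjusted p = 0.908). For Cox7a1 they ran from 312 to 363 CPM with GFP and from 280.5 to 383 with F11 (log2 −0.08, SE 0.06, adjusted p = 0.652).

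L140 held Cox8b at 5.73% and Cox7a1 at 6.81% of their heart means, where the median of the other 15 adipose libraries was 0.691% and 0.381%. The 10 cardiomyocyte markers stood at 8.11 to 14.1% of their heart means in L140 and at a median of 0.0606% in the other libraries. Myh6, the adult cardiac myosin, was 3047 CPM there and 9.36 to 60.2 CPM in the others. Other heart-rich genes of oxidative metabolism were also raised in L140. Cox6a2, the muscle form of a further oxidase subunit, was 4.90% of its heart mean. Fabp3 and Cpt1b, which also count among brown and beige markers, were 9.80% and 8.58%, and the brown regulator Ppargc1a was 9.43%. The fast skeletal muscle transcripts Mylpf and Tnni2 were 0.647 and 0.547 CPM in L140, near the 0.263 to 0.879 and 0.116 to 0.631 CPM of the others, while the summed skeletal muscle list, which contains Ckm, reached 237 CPM against at most 50.3 CPM with F11. White adipocyte markers in L140 summed to 45398 CPM, the second highest of the 8 GFP libraries. Cidea, at 4.43 CPM, Prdm16, at 11.1 CPM, and Ebf2, at 41.7 CPM, were also highest of the GFP libraries in L140, at 15.9, 40.2 and 373% of their heart means. How far heart RNA accounts for these members in L140 was not tested.

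**Figure D4:**
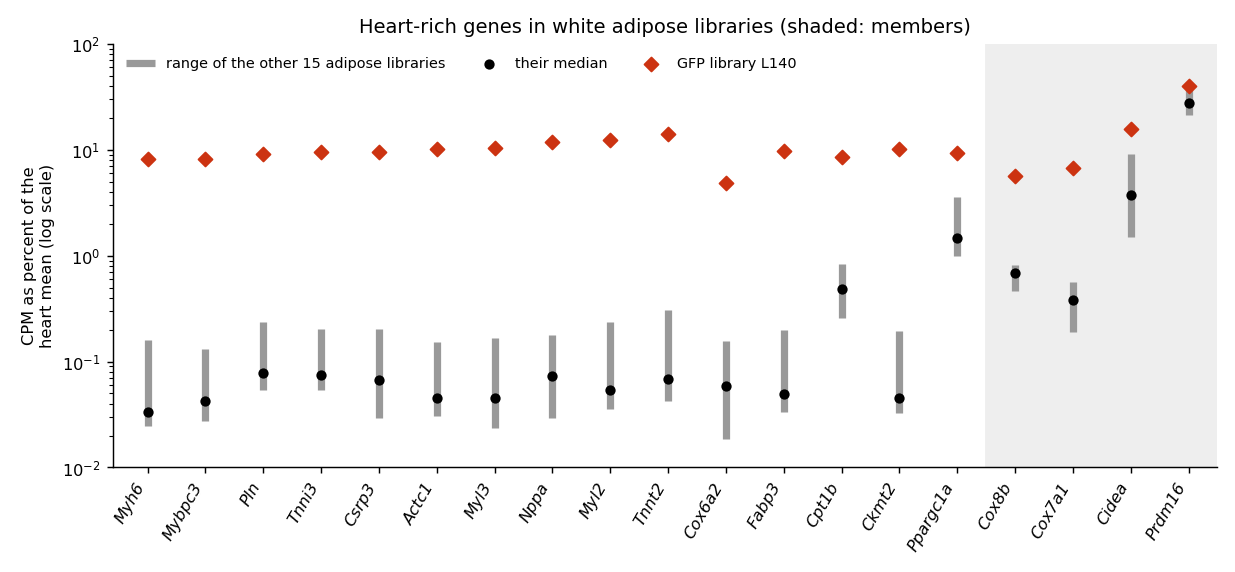
The level of each gene in white adipose libraries is shown as a percent of its mean in the 13 hearts (y axis, logarithmic), for GFP library L140 (diamonds) and for the other 15 libraries (bar = range, dot = median), with 4 members shaded at the right. The 10 cardiomyocyte markers at the left lay at 8.11 to 14.1% in L140, and Cox8b and Cox7a1 at 5.73 and 6.81%.

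Cox7a2 and Cox8a encode the ubiquitous forms of these subunits. As a share of the pair per kilobase of exon, Cox7a1 made up a median of 76.0% of Cox7a1 and Cox7a2 in heart and 4.05% in the 15 adipose libraries other than L140. Cox8b made up 84.5% of Cox8b and Cox8a in heart and 2.74% in those adipose libraries. L140 lay between, at 36.9% and 17.1%. In heart the mean shares were 75.9 ± 0.690% (SD, n = 6) and 75.7 ± 1.10% (SD, n = 7) for Cox7a1 in GFP and F11 hearts, and 84.6 ± 1.34% and 84.5 ± 1.07% for Cox8b, differences smaller than the spread within either group.

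**Figure D5:**
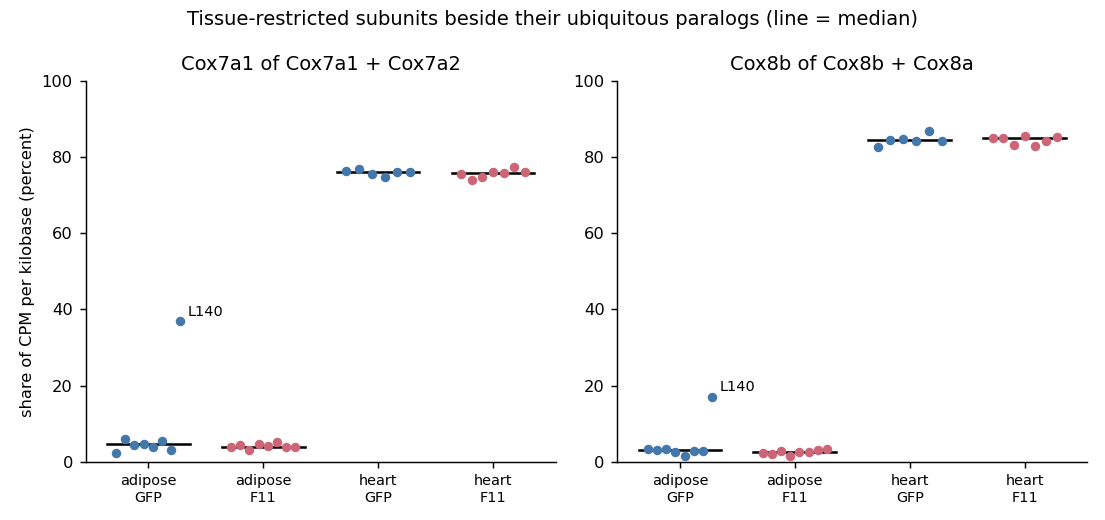
The share of Cox7a1 in Cox7a1 and Cox7a2, and of Cox8b in Cox8b and Cox8a (y axes, percent of CPM per kilobase of exon), is plotted for each library by tissue and vector, with the group median as a line. Hearts lay at 74.0 to 77.3% and 82.7 to 86.9%, adipose libraries other than L140 at or under 6.07% and 3.40%, and L140 at 36.9% and 17.1%.

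Elovl3 (ENSMUSG00000038754, chr19:46131897-46135694, plus strand) encodes the elongase that rises sharply in cold-exposed brown fat. Its estimated excess in adipose tissue over heart was the largest of the members, but it passed the filter through adipose libraries only. Adipose libraries ran from 0.199 through 1.44 to 6.05 CPM with GFP and from 0.108 through 1.10 to 2.68 CPM with F11. The libraries spread widely in both groups, and 7 of 8 F11 libraries lay below the GFP median. The log2 fold change of −0.81 (SE 0.63, adjusted p = 0.9996) came to −0.28 (SE 0.59) without GFP library L135, the highest, and to −0.99 (SE 0.59) without L140, the lowest with GFP. Hearts held 9 counts in 6 GFP and 3 counts in 7 F11 libraries, with means of 0.0705 and 0.0193 CPM and an exact permutation p (two-sided) of 0.143. Of all the settings tried, that exact test passed 0.05 without L5 or without L6 (p = 0.0442) and without both L1 and L5 (p = 0.0485). All but 1 of these hearts were at or under 3 counts.

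Dio2 (ENSMUSG00000007682, chr12:90724552-90738438, minus strand) encodes the deiodinase that supplies active thyroid hormone to brown fat. In adipose tissue it ran from 0.348 through 1.49 to 3.31 CPM with GFP and from 0.296 through 0.802 to 3.02 CPM with F11. Of the F11 libraries 7 of 8 were below the GFP median, and the exception, L148, was near the top of both groups. The log2 fold change was −0.65 (SE 0.47, unadjusted p = 0.185, adjusted p = 0.9996), and −1.08 (SE 0.42, unadjusted p = 0.0216, adjusted p = 0.764) without L148. In limma voom it was −1.19 (unadjusted p = 0.00634, adjusted p = 0.363). Over the 16 adipose libraries Dio2 was related to the summed level of 9 macrophage markers by Pearson r but not by rank (Pearson r = 0.77, adjusted permutation p = 0.0246, and Spearman rho = 0.73, adjusted permutation p = 0.0689, over 88 relations), with Pearson r = 0.82 within GFP, 0.73 within F11 and 0.75 without the 2 libraries farthest from the median. L148, the F11 library highest in Dio2, was also the F11 library highest in macrophage markers, at 5578 CPM. Dio2 ran against the summed white adipocyte markers (r = −0.71, adjusted permutation p = 0.0321, rho = −0.72, adjusted permutation p = 0.0689, and r = −0.56 without L133 and L148). Ebf2 ran with them (r = 0.72, adjusted permutation p = 0.0321, rho = 0.80, adjusted permutation p = 0.0387, and r = 0.84 without L133 and L148), and this was the 1 relation of the 88 that passed by both measures, where 8 passed by Pearson r. The macrophage sum ran against Cox7a1 (r = −0.61, adjusted permutation p = 0.0246, rho = −0.65, adjusted permutation p = 0.131, and r = −0.71 without L140 and L142). The other 4 relations were those of the skeletal muscle sum with Cox8b, Cox7a1, Cidea and Ebf2, with r = 0.97, 0.96, 0.78 and 0.65 and adjusted permutation p of at most 0.0321. Without L140 and L148 these came to r = 0.44, 0.39, 0.53 and 0.47, and by rank the adjusted permutation p was at least 0.126. Macrophage markers summed to 578 to 4688 CPM with GFP and 839 to 5578 CPM with F11, all 9 with a negative log2 fold change and none called. In bulk tissue fewer cells of a type and less RNA per cell cannot be told apart, here or for any other member. Hearts held 2.37 to 3.05 CPM of Dio2 with GFP and 1.76 to 5.38 CPM with F11, L35 being the highest, and differed by 0.00 on the log2 scale (SE 0.21, adjusted p = 0.999).

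From library to library in fat no pair of members could be shown to vary together. Of 28 pairs over the 16 adipose libraries, none passed an adjusted permutation p of 0.05 by Pearson or Spearman. Cox8b and Cox7a1 had the highest Pearson r, 0.95 (adjusted permutation p = 0.0723), with rho = 0.49, and r fell to 0.17 without L137 and L140, the 2 libraries farthest from the Cox8b median. The lowest unadjusted permutation p was that of Dio2 with Ebf2, which ran in opposite directions. There r was −0.67 (adjusted permutation p = 0.0585) and rho −0.62 (adjusted permutation p = 0.267). Without L135 and L148 r was −0.60, and it was −0.81 within GFP and −0.46 within F11. For Ucp1, none of the 7 relations with the other members passed. The largest was that with Cidea, with r = 0.39 (adjusted permutation p = 0.678), rho = 0.39, and r = 0.30 within GFP and 0.69 within F11. Among the genes next to Ucp1 in pattern, by Pearson r of log2(CPM + 1) over the 16 adipose libraries after removal of the vector means, were Wnt10b (0.77), Cstf1 (0.74), Sema3e (0.74) and Clec3b (0.72), then Slc4a1, Gfpt2, Muc6, Ankrd16 and Sfrp2, of 14336 genes compared. Without L140 and L144 the r of these 9 genes ran from 0.08 for Wnt10b to 0.40 for Gfpt2 and Sfrp2. Among those closest to the mean of the members were Idh3b (0.94), Mdh2 (0.93), Cox7b, Acot13, Vwa8, Uqcrc1, Atp5a1, Ppif and Atp5b. Their r stayed between 0.75 and 0.83 without L140 and L144.

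Upstream of the members, adrenergic input and transcriptional control were represented in fat by abundant genes. Of 12 genes of adrenergic input, 7 were higher in adipose tissue than in heart and 4 lower, or 9 and 2 with plain totals. Since 86.6% of all genes tested were called in this contrast, nothing is read from such counts, here or for the lists below. Adrb3, the fat beta-adrenergic receptor, was 43.3 to 636 CPM in GFP and 34.9 to 592 CPM in F11 adipose libraries and at most 1.26 CPM in hearts (log2 9.37, SE 0.62, adjusted p = 3.80e-14), and Prkar2b, a regulatory subunit of protein kinase A, differed by 7.69. Prkaca and Gnas, the catalytic subunit and the stimulatory G protein, were lower by TMM (−1.20 and −1.02), and with plain totals Prkaca came to −0.24 and Gnas to −0.06 (adjusted p = 0.0904). Of 17 brown regulators 9 were higher and 6 lower. Cebpa differed by 5.18 and Zfp423, a keeper of white identity, by 3.67, while Esrra and Ppargc1b, which drive mitochondrial genes, differed by −2.75 and −3.90 and stayed lower with plain totals (−1.79 and −2.94). Between vectors, 0 of 17 regulators were called in either tissue (adipose median log2 0.03, heart −0.02), and 0 of 12 adrenergic genes tested in adipose tissue or of 10 tested in heart. The lowest p-values in adipose tissue were those of Ehmt1 (log2 0.10, unadjusted p = 0.0364) and Ppargc1a (−0.79, unadjusted p = 0.0794, and −0.15 without L140), and of Prkaca (−0.10) and Adra2a (0.31). In heart they were those of Cebpa (−0.42, adjusted p = 0.0883), Zfp516 (−0.16), Adcy3 (−0.30) and Prkar2b (−0.92, and −0.28 without L1 and L5).

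Other markers and effectors of thermogenic fat held no called gene between vectors. Of 27 further brown and beige markers 21 were tested in adipose tissue and 17 in heart, of 12 genes of heat production without UCP1 10 and 11, and of 24 paralogs of the members 20 and 19, and none was called in either tissue. Medians were −0.14, −0.21 and −0.02 in adipose tissue and 0.00, −0.01 and −0.03 in heart. The lowest p-values in adipose tissue belonged to Fabp3 (log2 −4.73), Cpt1b (−1.64), Ckmt2 (−4.76), Ryr2 (−2.76) and Cox6a2 (−3.72), all heart-rich genes, and without L140 these came to −0.54, −0.13, −0.41, −0.10 and −0.71. In heart they belonged to Acot11 (0.27, adjusted p = 0.125), P2rx5 (0.18), Alpl (0.25, adjusted p = 0.0941), Ckb (−0.19), Elovl5 (−0.14) and Cidec (−1.10). Between tissues, 11 of the 22 markers tested were higher in adipose tissue and 10 lower, 3 and 8 of the 12 genes of other heat production, and 14 and 8 of the 23 paralogs, and with plain totals 12 and 10, 4 and 6, and 15 and 5. Kcnk3, Slc25a20 and Plin5 differed by −3.68, −2.17 and −4.67 and Letmd1 by 1.54. Gamt, of creatine synthesis, differed by 2.68, and the creatine transporter Slc6a8 and the calcium cycling genes Atp2a2 and Ryr2 by −2.33, −6.19 and −8.32. Among the paralogs the ubiquitous Cox4i1, Cox7a2l and Cox7a2 differed by −2.40, −1.30 and −1.79, and by −1.43, −0.33 and −0.83 with plain totals, and Cidec by 10.71. Zic1 and Lhx8, which mark classical brown fat, were at most 0.430 and 0.180 CPM in any adipose library. Other markers of that list were more abundant there. Slc36a2 was 62.2 to 238 CPM in adipose libraries and 20.1 to 30.9 CPM in hearts, and Nrg4 13.5 to 53.3 and 1.64 to 2.96 CPM. Cited1, by contrast, reached 2.94 CPM in F11 adipose library L142 alone, and was at most 0.0807 CPM in the other adipose libraries and 0.494 CPM in hearts. These genes are named for their level, not for their p-value.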

How the data were processed

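RNA abundance was measured in heart and white adipose tissue. Per the labels' protocols, total RNA was extracted with miRNeasy kits and mRNA libraries were made with a Nugen Universal Plus kit and sequenced on a NovaSeq. The deposited values are estimated counts per gene, made by the authors with kallisto 0.46 on GRCm38.p6, per the submitters' processing notes. For the annotation release, the strand setting and the summing of transcripts nothing is given in the sources used here. The table held 36558 gene identifiers, 702 of them without a symbol, and 30.82% of values were not whole. Members and gene lists were chosen with earlier results of these data known. Gene positions and exon lengths are from GENCODE on GRCm38.

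Counts were rounded, filtered with filterByExpr, scaled by TMM and fitted with edgeR 4.0.16 (robust quasi-likelihood test, R 4.3.3), per tissue for the vector comparison and over all 29 libraries between tissues, with a Benjamini-Hochberg threshold of 0.05 over all genes tested. Printed CPM use TMM over all 29 libraries. Members under the filter were compared by exact permutation tests of mean CPM. Correlations used log2(CPM + 1) and 100000 resamples, where the smallest p is 1e-05, or all orders within a vector. The genes named are the 8 members, up to 4 called genes of each list (lowest p first) or otherwise the 2 of lowest p, and the 10 most alike in pattern with a mean of at least 1 CPM, of which 1 for each pattern is not reported here. The 17 lists (members, 5 thermogenic lists, 11 cell type lists) held 198 entries, all found. No pair of libraries of a group differed by as little as sampling noise (chi-square over degrees of freedom was at least 3.364). The fits were tested on simulated data. Alternatives were RLE size factors, no filter, a stricter filter, DESeq2 1.42.0, limma voom 3.58.1 with quality weights, exclusion of mitochondrially encoded genes, a fit over all 4 groups and leaving out each library. Library totals without TMM and fits without named libraries were added after seeing the data.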

Additional observations from a re-analysis of the deposited data

Results flagged for a closer look

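Each group of a member was checked for a library far from the others by the gap test of Dixon, over 32 groups of 6 to 8 libraries. Chance flags about 1 in 20 groups, and in 8 of the 32 groups 1 library stood apart. GFP adipose library L140 did so in 4 of these groups, with 13.79 CPM of Cox8b, 22.59 CPM of Cox7a1, 11.15 CPM of Prdm16 and 41.65 CPM of Ebf2. F11 adipose library L144 stood apart in Ucp1 at 2.332 CPM, and F11 adipose library L148 in Dio2 at 3.022 CPM. Among F11 hearts L38 stood apart in Ucp1 at 0.3701 CPM, from 8 counts, and L35 in Dio2 at 5.376 CPM. The cause of each was not tested.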

How the results depend on the processing

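Over the planned and added settings no member was called between vectors in either tissue or in the difference between tissues, and all 7 members tested between tissues kept direction and call, except Dio2 with library totals (−0.141, adjusted p = 0.638). Under settings that leave out no single library, 248 values of members (log2 differences and correlations with Ucp1) kept direction and side of the threshold, 13 changed sign and 1 lost its call. Genes called in adipose tissue numbered 6 with DESeq2 and 4 in the fit over all 4 groups. In heart they numbered 377 with DESeq2, 201 with voom, 30 in the fit over all groups and 51 without L1 and L5, and in the difference between tissues 172 with DESeq2, 24 with voom, 2 with no filter and 1 without L1, L5, L138 and L140. Signs turned at values near 0 for Cidea (0.010, voom) and Cox7a1 (0.006 without L138 and L140) in adipose tissue, Dio2 in heart (−0.032 with library totals and −0.069 with voom), and in the difference between tissues for Cox7a1 (0.024 with voom and 0.114 without those 4 libraries) and Elovl3 (−0.049, voom). Without L1 and L5 the heart differences were −0.5636 CPM for Ucp1 (exact p = 0.109) and −0.0753 CPM for Elovl3 (exact p = 0.0485). Leaving out each library gave 0 genes called in adipose tissue, 87 to 179 in heart, 1 to 6 in the difference and 14187 to 14382 between tissues. Ranges that crossed 0 were −0.105 to 0.003 for Cox8b and −0.235 to 0.089 for Dio2 in heart, −1.661 to 0.056 for Cox7a1 and −0.023 to 1.716 for Elovl3 in the difference, and −0.0676 to 0.2656 CPM for adipose Ucp1. Heart Ucp1 ran from −3.5317 to −1.7271 CPM and heart Elovl3 from −0.0654 to −0.0196 CPM. Pearson r of Ucp1 in fat, leaving out each library, ran from −0.396 to 0.42 with Cox8b, −0.213 to 0.421 with Elovl3, −0.358 to 0.326 with Dio2, −0.089 to 0.103 with Prdm16 and −0.184 to 0.374 with Ebf2. Without L140 and L144 it was 0.257 with Cox8b, −0.224 with Cox7a1, 0.644 with Elovl3, 0.559 with Dio2 and −0.592 with Ebf2, and 0.008 with Cox8b at a pseudocount of 0.1. The cause of these changes was not tested. No paired analysis was possible because the groups share no replicate numbers. Depth limits Ucp1 in fat and Elovl3 in heart, where most libraries held 3 counts or fewer.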

Other observations

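Markers of other cell types in the fat libraries held no called gene between vectors, in any of the 11 lists. Among 8 mural cell genes, of the pericytes and smooth muscle that wrap vessels, 6 had a positive log2 fold change. Kcnj8, a potassium channel of pericytes, had the lowest p (0.59, SE 0.15, unadjusted p = 0.000903, adjusted p = 0.939 by edgeR), with 7 F11 libraries of 8 higher than the GFP median, and Notch3 was next (0.32, SE 0.08, adjusted p = 0.939), with 8 of 8 above. All 7 endothelial markers and all 8 hepatocyte markers had positive values (medians 0.13 and 0.15), and all 9 macrophage, 5 B cell and 4 T cell markers tested had negative ones (medians −0.17, −0.24 and −0.23). White adipocyte markers were split 6 to 9, adipocyte progenitor markers 3 to 4, mesothelial markers 2 to 6 and skeletal muscle markers 3 to 4. The 10 cardiomyocyte markers, all negative with a median of −4.66, came to −0.46 without L140. Several of these signs rested on L140. Without it hepatocyte markers were 2 positive and 6 negative (median −0.03), and endothelial markers 6 and 1. White adipocyte markers were then 11 and 4, progenitor 5 and 2, mesothelial 4 and 4 and skeletal muscle 5 and 2. All macrophage, B cell and T cell markers tested stayed negative, and mural markers stayed at 6 and 2.

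In heart 2 genes of these lists were called, both higher with F11, where 0.872% of all 14684 genes tested were called. They were Dgat2, not called without L1 and L5, and Myh6, the adult cardiac myosin (0.30, SE 0.04, adjusted p = 0.00192 by edgeR). Of 10 cardiomyocyte markers 9 had positive values. Positive and negative values were 4 and 2 for skeletal muscle, 0 and 1 for hepatocyte, 1 and 2 for B cell, 1 and 0 for T cell, 3 and 6 for macrophage, 3 and 4 for endothelial, 4 and 4 for mural and 4 and 3 for adipocyte progenitor markers.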
